A study of Mus musculus with 6 samples.

Results

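The 10 genes examined were regulators of the epithelial to mesenchymal transition, and cadherins. They were the transcription factors Zeb1, Zeb2, Snai1, Snai2, Twist1 and Twist2 and the cadherins Cdh1, Cdh2, Cdh3 and Cdh5. They were chosen by name, and every mouse probe whose gene name in the scanner files was one of these symbols, or the older names Zfhx1a for Zeb1 and Zfhx1b for Zeb2, was taken. This gave 10 of the 27670 genes and 16 of the 41174 probes on the array. Expression was read with single-colour Agilent arrays in 4T1.2 cells, a mouse mammary tumour line of BALB/c background derived from 4T1 and able to spread to bone. The cells carried the pMSCV retroviral vector, either empty (base vector, 3 arrays) or with Irf7 (3 arrays), a transcription factor that drives interferon genes. Both groups had gone through puromycin selection and cloning from single cells, and several clones were then pooled, so each group is 1 pooled population. The arrays came from 3 independent experiments, and p-values measure the spread between cultures of these pools.

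In the epithelial to mesenchymal transition, cells lose the junctions that hold an epithelium together and gain motility. Factors of the Snail, Zeb and Twist families bind E-box sequences, and the Snail and Zeb proteins repress Cdh1, the gene for E-cadherin. Cadherins join cells through calcium-dependent contacts and are tied to the actin skeleton by catenins inside the cell. Mammary carcinomas, 4T1 lines among them, often hold epithelial and mesenchymal features side by side.

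Probes of 6 genes could be tested, and for 5 of these genes the first 30 of the 60 bases of each probe are shown, 5′ to 3′, so that the stretch each signal came from can be identified. No base is singled out in them, and the sequence of the Zeb1 probe is not shown here. The Zeb2 probes are numbered from the 3′ end of the gene and lie on the minus strand of chromosome 2 (build mm7 of the array design), probe 1 at chr2:44991829-44991888, probe 2 at chr2:44994565-44994624, probe 3 at chr2:44995859-44995918 and probe 4 at chr2:45028303-45028362.
Zeb2 probe 1 (A_52_P526372): tacgtgggggaaaatatatgtgaaagcaat
Zeb2 probe 2 (A_52_P596008): ctgtattttcgactgaaaattccactttct
Zeb2 probe 3 (A_51_P121206): acgaggaagacaatatggaagatggcatgg
Zeb2 probe 4 (A_52_P587928): tgcagggctataagaacaaatgttcggatg

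Both Cdh5 probes lie on the plus strand of chromosome 8, probe 1 at chr8:102744103-102744162 and probe 2, 660 bases further on, at chr8:102744763-102744822. The Cdh1 probe lies on the plus strand at chr8:105268557-105268616. The Snai1 probe (chr2:167283227-167283286) and the Twist1 probe (chr12:31805579-31805638) are on plus strands.
Cdh5 probe 1 (A_51_P309056): tccgtcaacttcaggaaaatggcttgtcga
Cdh5 probe 2 (A_52_P248604): acttattataagactctagttctcacagac
Cdh1 (A_51_P137336): acattctaacgggaaaaaggagacaagacc
Snai1 (A_51_P165087): gtttcacagcagtttaactgtctcagaagg
Twist1 (A_52_P20906): atggtaacaatcagaggaattttaacacct

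The introduced gene was read first. Irf7 read 246, 195 and 210 in processed signal with the base vector and 4486, 4963 and 5012 with IRF7, and these groups lay 4.28 apart on the log2 scale (SE 0.049, limma), which is 19.4-fold. On the arrays 54.3 to 59.7% of the mouse spots were well above background, the scanner's own mark for a spot that stands clear of its surroundings. Base-vector array 1 shared a slide and a scan with the 3 IRF7 arrays, and base-vector arrays 2 and 3 were on another slide, so values within slide 1 rest on 1 base-vector array. Across the series 23518 probes cleared background on 3 or more of the 6 arrays and were tested, and 58.6% of them passed an adjusted p of 0.05 (30.4% higher and 28.2% lower in the IRF7 cells). Counted by gene, each through its brightest probe, 60.1% passed. A call in either direction was therefore common.

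Of the 16 probes, 8 were well above background on all 6 arrays, 5 on none, and 10 could be tested. These 10 belonged to 6 of the 10 genes. The 6 untested probes were the 3 of Cdh2 and the single probes of Snai2, Twist2 and Cdh3. In the limma fit 5 probes rose, 1 fell and 4 did not pass, and the groups did not overlap in 8 of 10 (66.1% of all tested probes). The rises belonged to Zeb1, Snai1, Twist1 and Cdh5, and the fall to 1 of the 4 Zeb2 probes. The share that passed, 6 of 10, was near that of all probes. The median log2 change of the 10 probes was 0.13, beside 0.02 over all tested probes. Zeb1 and Cdh5 probe 1 were tested only through the IRF7 arrays, where they were high. With all 6 arrays required to be above background, 8 of these probes remained, of which 3 rose and 1 fell. Their median log2 change was 0.001, beside 0.006 over all probes tested in that way.

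**Figure D1:**
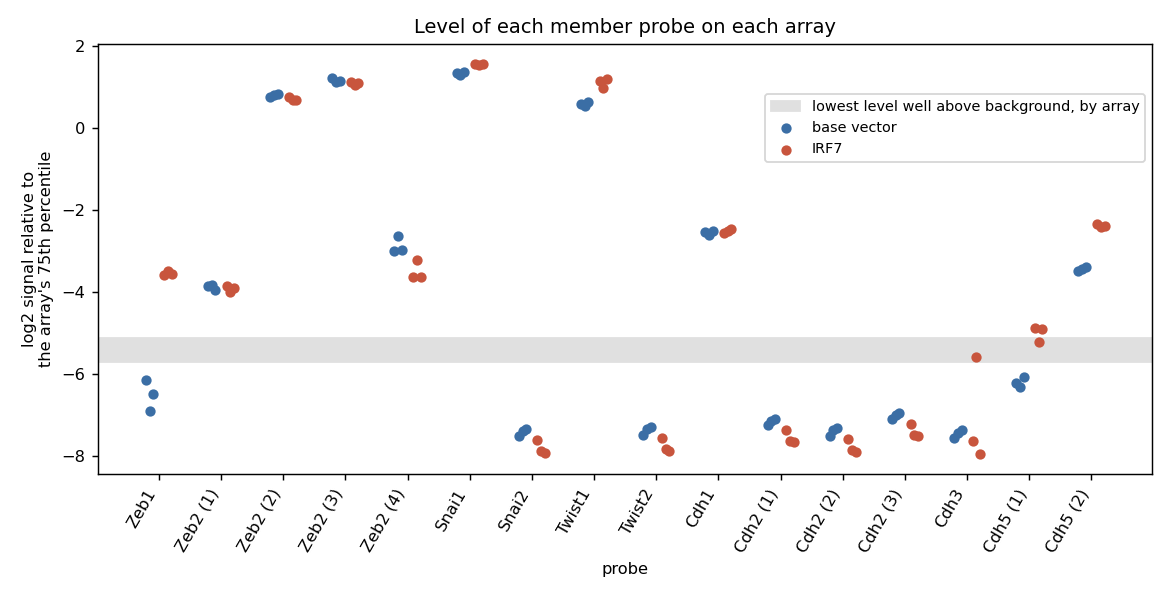
Log2 processed signal relative to the array's 75th percentile (vertical axis) of each of the 16 probes (horizontal axis) on the 3 base-vector (blue) and 3 IRF7 (red) arrays. The grey band spans the lowest level well above background on each array. Probes of Snai2, Twist2 and Cdh2 lie below the band in both groups, and Zeb1 and Cdh5 (1) lie below it in the base-vector cells only. On IRF7 array 2, Cdh5 (1) lies inside the band. Probe numbers in brackets run along the chromosome, and heights of different probes cannot be compared, since probes differ in brightness for equal RNA.

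Among the regulators, Zeb1 passed from below detection to detection. Zeb1 is a zinc finger homeodomain factor that represses epithelial genes. Its only probe, on chromosome 18, gave 18.3, 9.66 and 13.1 units of processed signal on the base-vector arrays and 108.2, 125.1 and 124.9 on the IRF7 arrays. No base-vector array and every IRF7 array was well above background. Because the base-vector level is only a bound, the change is given as at least 3.15-fold. This bound sets the mean IRF7 level against the mean, over the base-vector arrays, of the lowest level well above background. The fitted log2 change was 2.97, but it uses base-vector signals below the background mark, so no p-value is given. This change was 2.61 within slide 1 and 1.00 after normexp, a model-based background correction. That correction adds 50 units to each signal and so narrows gaps among dim probes. The 30 other tested genes within 5 Mb of the probe had a median log2 change of 0.05.

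Zeb2, the close relative of Zeb1, was read by 4 probes, of which 1 passed. Probe 3 gave signals of 3050, 2535 and 2592 with the base vector and 2840, 2885 and 3135 in the IRF7 cells. Relative to the arrays' 75th percentile its log2 change was -0.08 (95% interval -0.19 to 0.02, limma adjusted p = 0.153). These are the values of a probe that is bright in both groups and whose difference is small. Probe 2 read 2214, 2023 and 2093 in the base-vector cells and 2194, 2269 and 2381 in the IRF7 cells, a difference of -0.09 on the log2 scale (95% interval -0.17 to -0.0021, limma adjusted p = 0.0741). Probe 1 read 89.5, 81.9 and 76.3 against 90.6, 88.1 and 98.2, with a log2 change of -0.04 (95% interval -0.17 to 0.10, limma adjusted p = 0.577). None of these 3 probes, which lie within 4030 bases at the 3′ end, passed, and all 3 changed sign where arrays were not scaled, to 0.16 for probe 1, 0.11 for probe 2 and 0.12 for probe 3, because leaving out the scaling moved the median log2 change of all probes from 0.02 to 0.22. Probe 2 passed narrowly under 4 of its 17 other settings, with adjusted p from 0.0275 to 0.458 over all of them.

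Zeb2 probe 4 fell. It was designed on a cDNA clone that the files describe as Zeb2 and lies 32444 bases further towards the 5′ end than probe 3. Its signal was 162.1, 185.4 and 150.1 with the base vector and 104.2, 150.1 and 118.0 in the IRF7 cells. On the scaled log2 values the groups did not overlap, and base-vector array 2 and IRF7 array 2 were each the highest of their group. The log2 change was -0.63 (95% interval -1.01 to -0.25, limma adjusted p = 0.0153). This call ended within slide 1 (-0.50, adjusted p = 0.131), with slide as a block (-0.50, adjusted p = 0.136), without IRF7 replicate 1 (-0.56, adjusted p = 0.0539) and without IRF7 replicate 3 (-0.56, adjusted p = 0.0521), within a range of 0.00102 to 0.136 over all settings. The lowest of that range came with replicate number as a block (-0.63, SE 0.032, limma adjusted p = 0.00102). The change of probe 4 was 0.55 lower on the log2 scale than that of probe 3, and the exact two-sided permutation test of that difference gave p = 0.1, the smallest that 3 arrays against 3 allow. Over the 6 pairs of Zeb2 probes, the exact permutation test gave p = 0.1 for the 3 pairs with probe 4 and 0.4 to 1 for the other 3 pairs, before any adjustment, and it was added after the values were seen. Between probes 3 and 4 lie 2 more probes under other names, of which RefSeq places the second in Zeb2. The first (chr2:45010100-45010159) was above background on no array and the second (chr2:45016569-45016628) on 1 base-vector array.

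**Figure D2:**
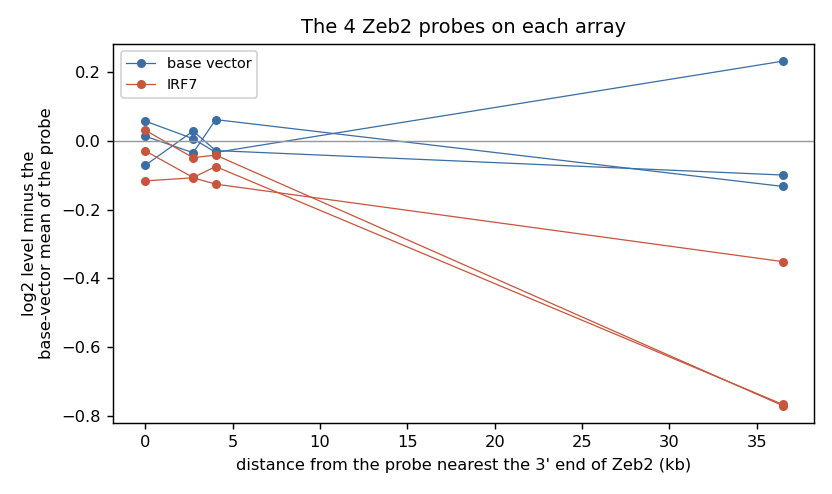
Log2 level of each of the 4 Zeb2 probes minus that probe's base-vector mean (vertical axis), against distance in kb from the probe nearest the 3′ end (horizontal axis), with 1 line per array. The 3 probes near the 3′ end lie close to 0 on every array, whereas at probe 4 the IRF7 arrays (red) lie below the base-vector arrays (blue), and IRF7 array 2 lies nearest to them.

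Snai1, the founding Snail factor, was bright in both groups and rose slightly. Its probe read 3304, 2824 and 3043 in the base-vector cells and 3863, 4057 and 4381 in the IRF7 cells. Every IRF7 array lay above every base-vector array. The scaled log2 means were 1.34 ± 0.04 (SD, n = 3) and 1.56 ± 0.02 (SD, n = 3), a 1.17-fold rise (log2 change 0.22, 95% interval 0.14 to 0.31, limma adjusted p = 0.00255). The change was 0.21 within slide 1 and 0.42 without scaling, and with median centring it was 0.19 and no longer passed (adjusted p = 0.15, within a range of 0.000308 to 0.15 over all settings). The 93 other tested genes within 5 Mb had a median log2 change of -0.11.

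Twist1, a basic helix-loop-helix factor of mesoderm and of mesenchymal tumour cells, rose more. Its probe read 1959, 1673 and 1817 in the base-vector cells and 2898, 2783 and 3362 in the IRF7 cells. The groups were apart, with IRF7 array 3 the highest. The scaled log2 means were 0.59 ± 0.05 (SD, n = 3) and 1.12 ± 0.11 (SD, n = 3), a 1.44-fold rise (log2 change 0.53, 95% interval 0.37 to 0.68, limma adjusted p = 0.000877). The change lay between 0.49 and 0.73 over 18 other settings and passed in all 18. The 36 other tested genes within 5 Mb had a median log2 change of 0.13, as had the 556 tested genes of chromosome 12. The part of this regional value in the rise was not tested.

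Snai2 and Twist2, the second Snail and Twist genes of this set, stayed below the background mark on all 6 arrays. Their signals, 5.99 to 7.27 for Snai2 and 6.17 to 7.51 for Twist2, lay under the lowest signal well above background on every array, which was 28.0 to 34.0. No fold is given for them. A level of Snai2 or Twist2 below this limit could not be measured.

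The 250 bases before the start of Snai1 and Twist1 in the RefSeq table (GRCm38.p6) are shown, because both genes rose. The capitals mark the E-box CACCTG, searched on both strands, which Snail and Zeb proteins recognise. A repeat of the kind that interferon regulatory factors bind, GAAA, any 2 bases and GAAA again, was searched likewise. An E-box can share its last base with the first of such a repeat, but neither window holds both.
Snai1, chr2:167537945-167538194, plus strand: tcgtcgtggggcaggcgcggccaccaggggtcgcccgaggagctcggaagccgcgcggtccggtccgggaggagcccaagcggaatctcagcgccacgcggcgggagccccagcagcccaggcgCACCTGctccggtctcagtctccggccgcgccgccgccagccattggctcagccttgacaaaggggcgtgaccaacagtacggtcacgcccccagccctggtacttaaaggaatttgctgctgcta
Twist1, chr12:33957421-33957670, plus strand: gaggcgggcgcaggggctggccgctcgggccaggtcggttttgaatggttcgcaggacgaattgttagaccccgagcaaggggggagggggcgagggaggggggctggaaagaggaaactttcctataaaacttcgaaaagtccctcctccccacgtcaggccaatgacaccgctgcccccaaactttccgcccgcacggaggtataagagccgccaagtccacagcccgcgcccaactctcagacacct

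The Snai1 window holds 1 CACCTG, starting 126 bases before the start site, and the Twist1 window holds none. Of 32851 windows of 250 bases before a start in the table, 17.2% hold this E-box. The GAAA repeat occurs in neither window and in 2.98% of all windows. The windows of Zeb2 (4 starts) and Twist2 in the table hold neither motif. A match or its absence is a description of these letters in this window.

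Among the cadherins, Cdh1, which encodes the E-cadherin of epithelial junctions, was measured with the greatest technical depth, because its probe is printed on 10 spots of each array. The spot means were 224.0, 190.4 and 206.9 in the base-vector cells and 222.2, 245.1 and 267.4 in the IRF7 cells before scaling. The spread of the 10 spots within an array was 4.30 to 8.14% of their mean. After scaling, the log2 means were -2.55 ± 0.05 (SD, n = 3) and -2.51 ± 0.05 (SD, n = 3), and the groups overlapped. The log2 change was 0.04 (SE 0.041, limma adjusted p = 0.436). Its 95% interval, -0.06 to 0.14, spans 0.958-fold to 1.10-fold, and changes within this range are not told apart from none. Under 18 other settings it passed in 0, with log2 changes from -0.01 with normexp to 0.24 without scaling (adjusted p = 0.0845 to 0.957). Zeb1, Snai1 and Twist1 rose in the same cells.

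**Figure D3:**
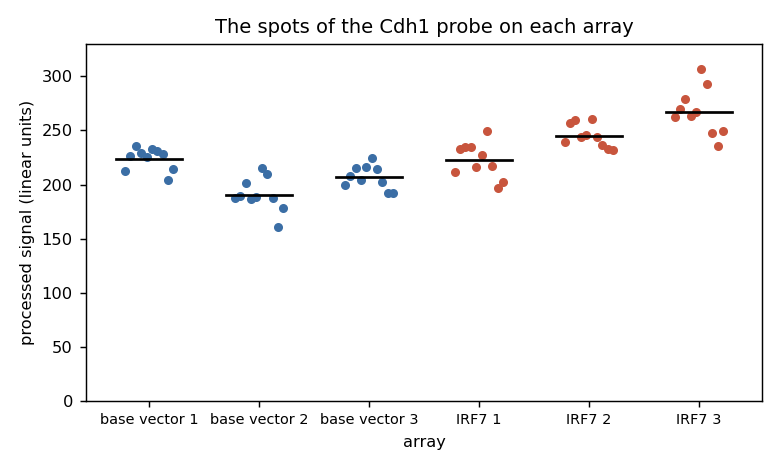
Processed signal in linear, unscaled units (vertical axis, from 0) of the 10 spots of the Cdh1 probe on each of the 6 arrays (horizontal axis), with the mean as a bar. The array means run from 190.4 to 224.0 in the base-vector cells (blue) and from 222.2 to 267.4 in the IRF7 cells (red), before the scaling that brings the groups to -2.55 and -2.51.

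Cdh5, which encodes the VE-cadherin of endothelial junctions, was higher in the IRF7 cells by both of its probes. Probe 2 read 115.5, 106.7 and 112.6 in the base-vector cells and 255.5, 261.8 and 281.5 in the IRF7 cells. All 6 arrays were well above background and the lowest IRF7 array was clear of the highest base-vector array. The scaled log2 means were -3.44 ± 0.05 (SD, n = 3) and -2.38 ± 0.04 (SD, n = 3), a 2.08-fold rise (95% interval 1.93 to 2.23, limma adjusted p = 1.52e-05). On the log2 scale it rose by 1.05, with 1.11 within slide 1 and 0.71 after normexp, and it passed under all 18 other settings. The 84 other tested genes within 5 Mb had a median log2 change of 0.06.

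Cdh5 probe 1 was dimmer and moved the same way. It read 17.4, 14.5 and 17.5 in the base-vector cells, where no array was well above background, and 44.0, 37.6 and 49.0 in the IRF7 cells, where all 3 were. The change is at least 1.14-fold by the bound. The fitted log2 change was 1.2, or 0.23 with normexp. It uses base-vector signals below the background mark, so no p-value is given. The changes of the 2 probes differed by 0.14 on the log2 scale, for which an exact two-sided permutation test, added after the values were seen, gave p = 0.3. The smallest p this test allows is 0.1, so it cannot decide whether the probes changed alike.

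Because Cdh5 is known from endothelium, the other endothelial markers were read beside it. Pecam1, Kdr, Emcn, Vwf and Erg, 5 of the 10 markers listed, cleared background on no array. Of the 4 that could be tested, 2 rose and 1 fell. Tie1, an endothelial receptor kinase, rose by 1.57 on the log2 scale (SE 0.064), Cldn5 was at least 1.25-fold higher from below background, and Egfl7 fell by 0.38 (limma adjusted p = 0.000548). The part of these markers in the Cdh5 result was not tested. The summed unscaled signal of the 10 markers was 4894 to 5619 in the base-vector cells and 4866 to 5593 in the IRF7 cells. Such a sum, here and for the markers below, follows its brightest probes and does not show the changes of single genes. The 75th percentile of an array was 1153 to 1298 in the base-vector cells and 1299 to 1467 in the IRF7 cells.

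Cdh2 and Cdh3 were at or below the limit of detection. Cdh2, whose product N-cadherin is typical of mesenchymal and neural cells, was read by 3 probes on chromosome 18, with signals of 6.04 to 9.59 over all arrays and none well above background. Cdh3, whose product P-cadherin is found in basal mammary epithelium and which neighbours Cdh1 on chromosome 8, read 6.88, 6.63 and 7.09 in the base-vector cells and 6.57, 29.4 and 5.91 in the IRF7 cells. Only IRF7 array 2 was well above background for Cdh3, so that value rests on 1 spot of 1 array and gives no comparison. Where dim probes were fitted too, the probes of Snai2, Twist2 and Cdh2 read log2 changes of -0.38 to -0.39, beside a median of -0.37 over the 14793 probes that were well above background on no array, so these values are those of dim spots in general.

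**Figure D4:**
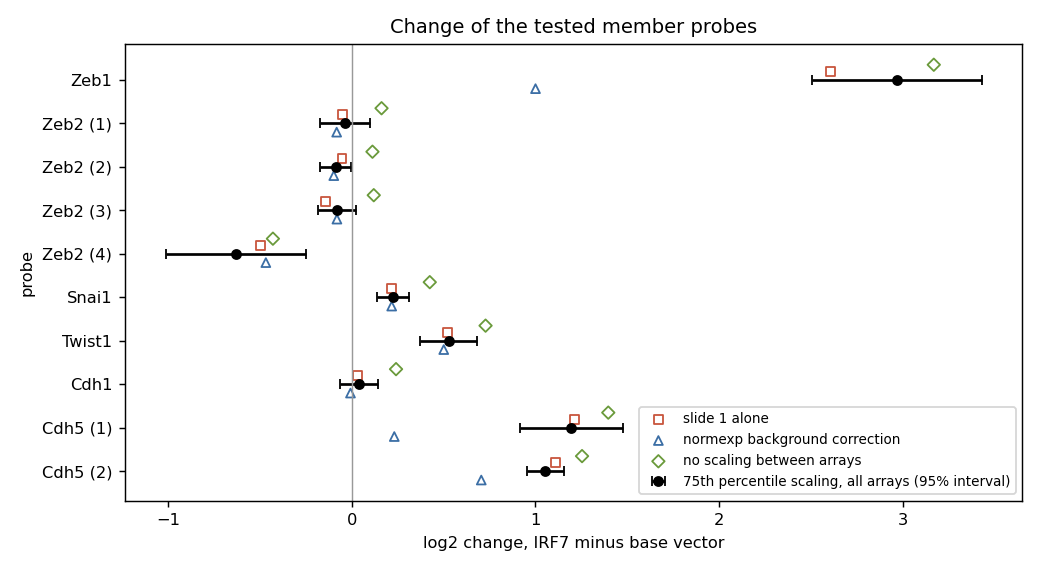
Log2 change, IRF7 minus base vector (horizontal axis), of the 10 tested probes (vertical axis), with its 95% interval in black and the values within slide 1 (squares), with normexp (triangles) and without scaling (diamonds). Zeb1, Snai1, Twist1 and both Cdh5 probes lie right of 0 under all 4 settings, Zeb2 probe 4 lies left of 0, and Cdh1 and Zeb2 probes 1 to 3 lie near 0.

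Genes of like pattern were looked for as a description, by the root mean square difference of log2 levels, each minus its own mean, over 6 arrays. Nearest to Cdh5 probe 2 were Phactr1 at 0.021, Gins3 at 0.024 and Ndrg1 at 0.025, with log2 changes of 1.04, 1.06 and 1.04. Nearest to Zeb2 probe 4 were Arhgap19 at 0.058, Olfr1065 at 0.058 and H3c1 at 0.074, with log2 changes of -0.55, -0.70 and -0.63.

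The other genes of the pathway were counted in 7 lists, each gene by its brightest probe, against 31.4% of all 15414 tested genes higher and 28.8% lower in the IRF7 cells. Of the 125 list genes tested, 40 rose and 45 fell. Without scaling 50 rose and 14 fell, so the split of the lists moved from 47.1% to 78.1% higher, as that of all called probes moved from 51.9% to 79.4%. The direction of a list's counts is therefore given under both. Of all 23518 tested probes, 9463 rose and 2458 fell without scaling, and 4351 rose and 5391 fell after median centring.

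Other transcription factors of the transition were divided, with 4 rising and 5 falling of 15 tested (5 and 2 without scaling). Hmga2, an architectural chromatin protein that acts upstream of Snai1 and Twist1, was 1.69-fold higher (log2 change 0.75, SE 0.040) by its brightest probe, with 0.65 and 0.09 from its other probes. The forkhead factor Foxc2 rose by 0.54 and Id2, which binds helix-loop-helix factors and keeps them from DNA, by 0.53. Sox4 fell by 0.99 (SE 0.038) and Id3, a relative of Id2, fell by 0.67. Foxc1, a forkhead factor like Foxc2, fell by 0.45 and did not pass without scaling (limma adjusted p = 0.0524). The helix-loop-helix factor Tcf3, a dimer partner of Twist proteins picked out after its value was seen, read -0.21 (limma adjusted p = 0.00512) and did not pass under 3 of the 5 other settings compared.

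Proteins that work with the Snail, Zeb and Twist factors or set their stability moved both ways. Of 19 tested, 4 rose and 6 fell, with 1 and 2 after median centring and 7 and 0 without scaling, and the median log2 change was 0.03. Fbxw7, part of a ubiquitin ligase, rose by 0.34 (SE 0.045) and the histone deacetylase Hdac1 by 0.22, which did not pass after median centring (0.19, limma adjusted p = 0.147). Limd1 rose by 0.17, which did not pass with median centring or within slide 1, and its other tested probe did not pass (0.08, limma adjusted p = 0.12). Csnk1a1, a casein kinase, fell by 0.19, which did not pass with median centring or within slide 1 and read 0.01 without scaling. Its 4 other tested probes read from -0.28 to 0.14, and 2 of them passed, both lower. The corepressor Ctbp2, a partner of the Zeb proteins, fell by 0.29 and the kinase Pak1 fell by 0.45. Both lie on chromosome 7, where the median scaled log2 change of 1136 tested genes was -0.38. Without scaling neither Ctbp2 (-0.09) nor Pak1 (-0.25) passed.

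Of the TGF-beta, BMP and Notch genes that feed these factors, 6 rose and 13 fell of 24 tested, with a median log2 change of -0.16 (6 and 3 without scaling, median 0.04). Tgfb2, a TGF-beta ligand, was 2.33-fold lower (log2 change -1.22, SE 0.044), and the signal carrier Smad3 fell by 0.53, with -0.41 and -0.11 from its other probes. The Notch ligand Jag2 fell by 0.64. Smad7, an inhibitor of the pathway, was 1.71-fold higher (log2 change 0.77, SE 0.053), and Inhba, which encodes an activin chain, rose by 0.52. The ligand Bmp7 rose by 0.29 and did not pass after median centring. The receptor Tgfbr2, named after its value was seen, read -0.39 and without scaling -0.19 (limma adjusted p = 0.142).

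Epithelial genes that the Snail and Zeb proteins are known to repress moved both ways. Of 20 tested, 10 rose and 7 fell (11 and 4 without scaling), and the median log2 change was 0.23, or 0.09 within slide 1 and 0.09 with normexp. The desmosome gene Pkp2 rose by 0.64 (SE 0.039) and St14, a membrane protease of epithelia, by 0.54, with 0.26 from its second probe. Marveld2, a protein of tight junction corners, was at least 2.44-fold lower, its IRF7 arrays all being below the background mark, and the epithelial factor Elf3 fell by 0.77. The desmosomal Dsp was at least 13.0-fold higher from below background, and the tight junction gene Cldn7 at least 4.67-fold lower to below it. Among genes named after their values were seen, Epcam, an epithelial adhesion molecule, read 1.19 (limma adjusted p = 0.00185), the splicing factor Esrp2 read 0.39 (limma adjusted p = 0.00107), and Grhl2, a factor that opposes Zeb1 in epithelia, was at least 1.43-fold higher from below background. With normexp Epcam read 0.67. Others of this list, likewise named later, fell. They were the tight junction genes Tjp3 (-1.51, limma adjusted p = 0.00286), Patj (-0.32) and Cldn3 (-0.29) and the desmosome gene Pkp3 (-0.28), which lies on chromosome 7.

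Mesenchymal genes were as divided, with 6 rising and 7 falling of 19 tested (8 and 2 without scaling) and a median log2 change of 0.01. The hyaluronan receptor Cd44 rose by 0.60 and Msn, which links membrane and actin, by 0.55. The matrix protein Sparc fell by 0.56 and the gelatinase Mmp9 fell by 0.47. The collagen gene Col5a1 fell by 0.30, with -0.01 from its second probe, and did not pass without scaling. Of 2 genes named after their values were seen, the intermediate filament gene Vim did not pass (-0.10, limma adjusted p = 0.101). It passed within slide 1 (-0.17, limma adjusted p = 0.0457) and turned sign with quantile normalization (0.05) and without scaling (0.10). The fibronectin gene Fn1 fell by 0.42 (limma adjusted p = 0.0156), which did not pass without scaling (-0.22) or within slide 1 (-0.37).

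Of the 19 other cadherins listed, 9 stayed below the background mark throughout and 6 could be tested, of which 1 rose (3 without scaling, 2 after median centring). That gene was Cdh17, a cadherin of gut and liver epithelia, which was 3.46-fold higher (log2 change 1.79, SE 0.049, limma adjusted p = 5.29e-06). With normexp its log2 change was 0.99, which still passed. The median log2 change of this list was 0.35, or 0.19 within slide 1 and 0.03 with normexp. Of the 19, 2 were above background on all base-vector arrays and 5 on all IRF7 arrays. Partners of cadherins included 9 that rose and 7 that fell of 22 tested (10 and 3 without scaling). Nectin1, an adhesion molecule of adherens junctions, was 2.20-fold higher (log2 change 1.14, SE 0.049), while Jup, the plakoglobin of cadherin junctions, fell by 0.79 and the catenin Arvcf fell by 0.60. The phosphatase gene Ptpn1 rose by 0.36 and the catenin-like Ctnnal1 by 0.43. Nectin2 fell by 0.98 and lies on chromosome 7. The catenins that bind E-cadherin directly or through each other were read after their values were seen. Ctnnb1, beta-catenin, read 0.15 (limma adjusted p = 0.0375) and did not pass within slide 1, with quantile normalization or after median centring. Ctnnd1, p120 catenin, read -0.24 (limma adjusted p = 0.00659) and did not pass without scaling (-0.04) or within slide 1 (-0.26), and Ctnna1, alpha-catenin, read 0.06 (limma adjusted p = 0.277).

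**Figure D5:**
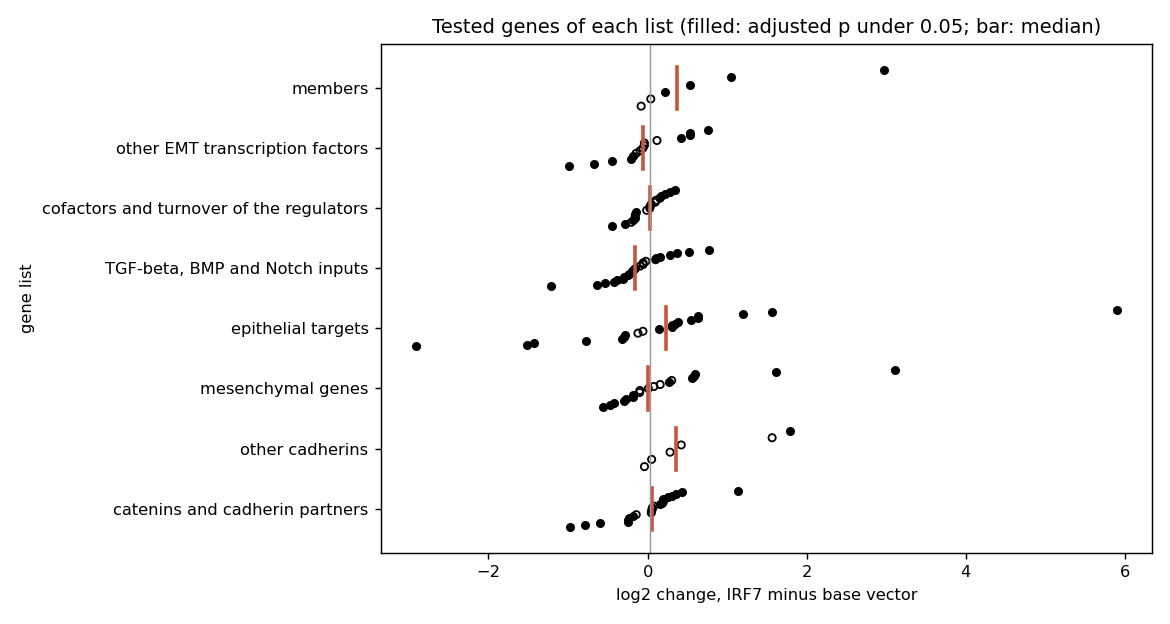
Log2 change, IRF7 minus base vector (horizontal axis), of each tested gene in the 7 pathway lists and of the 6 tested genes examined here, called members on the vertical axis. Filled points passed an adjusted p of 0.05, red bars are list medians and the grey line is the median of all tested genes, 0.03. Every list of pathway genes holds values on both sides of 0, and list medians run from -0.16 to 0.35.

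Markers of cell types were read beside these results. Of the epithelial markers 3 rose and 2 fell of 8 tested, and Krt19 and Ehf were above background on no array. Their summed processed signal, unscaled like the other sums given here, was 394145 to 456379 in the base-vector cells and 511190 to 566684 in the IRF7 cells, without overlap. The 75th percentile of an array was 1153 to 1298 in the base-vector cells and 1299 to 1467 in the IRF7 cells, likewise without overlap. The part of array brightness in these sums was not tested. The keratin gene Krt7 rose by 2.62, while Elf3 fell by 0.77 and Cldn3 fell too. The median log2 change of the 8 tested was 0.04, beside 0.03 over all tested genes. Epcam, Krt8 and Krt18 were well above background on all 6 arrays, and 7 of the 10 markers were so throughout the base-vector cells. Fibroblast markers summed to 6625 to 7441 in the base-vector cells and 3493 to 3967 in the IRF7 cells. Of these, 1 rose and 3 fell of 5 tested, and Col1a1, Lum, Thy1 and Dpt were above background on no array. Myeloid markers summed to 2748 to 3101 and 3796 to 4478, with 2 rising of 4 tested and Itgam and Tyrobp above background on no array. Lymphocyte markers summed to 894.1 to 1309 and 1138 to 1295, with 2 rising of 5 tested and Cd8a, Cd79a and Ms4a1 above background on no array. The part of these marker values in the changes above was not tested, and with total RNA of a culture, fewer cells of a type and less RNA per cell cannot be told apart.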

How the data were processed

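Total RNA of 6 cultures was labelled with Cy3 and hybridised to 1 array each. Per the submitters' processing notes, Agilent Feature Extraction 9.5.3.1 read the scans. The deposited intensity of a spot had, per the file headers, its background subtracted and its spatial trend removed, with no scaling from array to array. The deposited value table was identical to it and served as the unscaled alternative. Of 45018 spots, 1639 controls were left out, as were 111 to 121 flagged spots per array. Spots of a probe were averaged, and log2 intensity minus the array's 75th percentile was tested with lmFit and eBayes (limma 3.58.1, R 4.3.3) per probe, all 6 arrays in 1 fit and no block, and p-values were adjusted by Benjamini-Hochberg over 23518 probes. Probes are placed on mm7. Gene names came from the files, updated through a RefSeq table (GRCm38.p6) by accession for 22951 probes and by symbol for 9768 more, with 8455 left as named. The fit was tested on simulated data. Files were parsed in Python 3.11.15 (pandas 2.3.3) and plotted with matplotlib 3.10.9.

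A bound is the mean level of the bright group over a limit for the dim group. On each array the limit is the lowest level well above background, or the probe's own level if higher, and these are averaged. The members and lists were chosen with earlier results of these data known. The genes named were all members, up to 3 called genes per list and direction with the smallest p, and a few picked out later, as said beside them; 1 gene that this rule names is not reported here. The alternatives were normexp, quantile normalization, median centring, no scaling, other filters on dim probes, 1 probe per gene, a trended and robust eBayes, a block for slide, slide 1 alone, the replicate block and each array left out. The number of arrays limits the precision.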

Additional observations from a re-analysis of the deposited data

How the results depend on the processing

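Of 23518 tested probes 13783 were called, 11889 to 13340 with 1 array left out and 9742 with median centring. With no filter on dim probes, 21497 of 41174 were called. Of the 10 tested probes of the members, 6 were called, 5 to 6 with 1 array left out, and 11 of 16 with no filter. Of the 125 list genes 85 were called, 77 to 83 with 1 array left out and 55 with median centring; the cause was not tested. The main fit did not pair the arrays by replicate number. Deviations of same-numbered arrays correlated at 0.035, 0.226 and 0.216, and those of differently numbered arrays at -0.211 to 0.015. Every array correlated best with its own number, so these values do not exclude pairing by number. With replicate number as a block 14474 probes, 6 member probes and 86 list genes were called. Zeb1 and Cdh5 probe 1 could not be fitted where all 6 arrays had to be above background. No member's called direction turned under any setting run. Signal over background limits Snai2, Twist2, Cdh2 and Cdh3.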
